A study of Mus musculus with 18 samples.

Results

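The genes described are 10 that serve the SMN complex and the making of small nuclear ribonucleoproteins (snRNPs): Smn1, Gemin2, Gemin5, Gemin7, Gemin8, Ddx20, Strap, Coil, Tgs1 and Snupn. They were taken by symbol from the array's annotation, as every probe set that names 1 of them and no other gene. That gave 23 probe sets of 45026, and all 10 genes of the 18191 measured. Where a gene had several probe sets, the one whose mean across all 18 arrays was highest leads its account (the lead probe set), and the others are given beside it. A further probe set that names Coil together with another gene was not used.

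Affymetrix Mouse430_2 arrays measured RNA of cultured mouse motoneurons in 6 groups of 3 arrays. The neurons came from E12.5 embryos (age in days), from spinal cord without dorsal root ganglia and meninges, were enriched by p75 panning, and were cultured for 7 days. In a microfluidic chamber their axons crossed microchannels into a second compartment, which alone held BDNF (20 ng/ml), while CNTF (5 ng/ml) was present in both. RNA of the somatodendritic compartment (cell bodies with dendrites) and of the axonal compartment was taken apart from wild-type cells left untreated, from cells given a lentivirus with an empty vector, and from cells given a lentivirus with an shRNA against Smn (Smn knockdown). The series compares these treatments, in a culture model of spinal muscular atrophy, within each compartment. All 6 groups share the same culture scheme and age, and the 3 treatments share the growth factors of their compartment. Comparisons between compartments thus also differ in BDNF. The RNA went through 2 rounds of linear amplification before labelling. Whether the 3 arrays of each group represent independent cultures is not given in the labels, so a p-value here reflects array-to-array spread and may be technical. Groups of 3 arrays limit the precision of all values. Titles number all knockdown arrays by another scheme than all control arrays. What the schemes mark is not given in the labels, and it cannot be told apart from the knockdown in any knockdown comparison.

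In the cytoplasm, the SMN complex loads a ring of Sm proteins onto each small nuclear RNA (snRNA). Tgs1 then hypermethylates the RNA's cap, snurportin (Snupn) and importin beta carry the particle into the nucleus, and it matures in Cajal bodies, whose scaffold is coilin (Coil). Loss of the human counterpart of Smn1 causes spinal muscular atrophy, a disease in which motoneurons degenerate, and SMN protein is also found in motor axons, where work on it has centred on mRNA transport and local translation.

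All values are log2 expression values. The background level of an array is the 95th percentile of 144 probe sets that name olfactory receptors and other genes foreign to spinal cord, and it lay between 6.42 and 6.63 on the somatodendritic and between 6.77 and 7.78 on the axonal arrays. Being above background in a group means exceeding this level on all 3 of its arrays. A fold given as at least a value raises readings below background to that level. It makes no allowance for spread between arrays, for other probe sets or for normalization. Of all genes, 51.7% to 53.4% were above background in a somatodendritic group, 35.4% in wild-type axons, 26.2% in empty vector axons and 17.1% in knockdown axons. Correlations across genes between arrays of 1 group were at least 0.994 in the somatodendritic groups, and between 0.744 and 0.902 in the axonal ones. Axonal knockdown replicate 1 and axonal empty vector replicate 2 were the arrays of their groups least like the somatodendritic controls, with correlations of 0.539 (the other two 0.658 and 0.712) and 0.705 (the other two 0.847 and 0.884). Of 8 motoneuron markers 1, Prph, was above background, in each of the 6 groups, and Chat, Slc18a3, Slc5a7, Isl1, Isl2, Mnx1 and Lhx3 were above it in none. The somatodendritic arrays labelled Smn knockdown were also compared with the empty vector for marker lists. Markers are counted at an adjusted p under 0.05 in limma's moderated test, which 28% of all genes reached. Higher were 10 of 10 microglial markers (group means of the list 8.38 and 5.93, wild-type 7.78) and 6 of 6 interferon-induced genes (10.6 and 5.29, wild-type 5.87). Lower were 6 of 7 markers of dividing cells (8.10 and 9.42, wild-type 9.53), 4 of 6 of astrocytes (8.39 and 9.11, wild-type 9.07) and 3 of 5 of the oligodendrocyte lineage (7.92 and 8.85, wild-type 8.93). The other measured markers of the lowered lists also lay below the empty vector, without passing the threshold. In axons the mean of the microglial list was 8.35 ± 1.85 (SD over 3 arrays) in wild-type, 5.90 ± 0.21 with the empty vector and 7.38 ± 1.35 with the knockdown. Its wild-type and knockdown arrays overlapped. The interferon-induced genes stood at 5.38 ± 0.17, 5.39 ± 0.08 and 8.43 ± 0.42. Above background in wild-type axons were 5 of 10 microglial, 3 of 5 oligodendrocyte-lineage and 2 of 7 dividing-cell markers. For astrocytes and fibroblasts it was 0 of 6 each. The microglial markers Aif1, Itgam and C1qa were above background in no group. Fewer cells of a type and less RNA per cell cannot be told apart in these samples. The part that such other cells have in the results below was not tested.

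In the cell bodies most of the machinery was measurable, and in axons a smaller share of it was. Above background were 7 of the 10 genes in somatodendritic wild-type arrays, 8 with the empty vector and 8 with the knockdown. In wild-type axons 5 genes were above background, which were Gemin5, Gemin7, Strap, Tgs1 and Snupn. Empty vector axons kept 2 of these 5, Strap and Tgs1, and knockdown axons kept 1, Snupn. Gemin2, Ddx20 and Coil exceeded background in all 3 somatodendritic groups and in no axonal group, and Smn1 and Gemin8 in no group at all. By single axonal arrays, Ddx20 exceeded it on 2 of 3 in wild-type and 1 of 3 with the empty vector. Coil did so on 1 of 3 in each of these groups, and Gemin2 on 0 of 3 in every axonal group. As shares of the 10 genes the group counts are 70%, 80% and 80% in the somatodendritic groups and 50%, 20% and 10% in wild-type, empty vector and knockdown axons, beside the percentages of all genes given above. The axonal counts move with the rule: at the 99th percentile of the background probe sets 2 genes remained above it in wild-type and 0 in knockdown axons, and at the 90th percentile the counts in empty vector and knockdown axons were 4 and 2. The shares of all genes under these other percentiles were not computed.

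**Figure D1:**
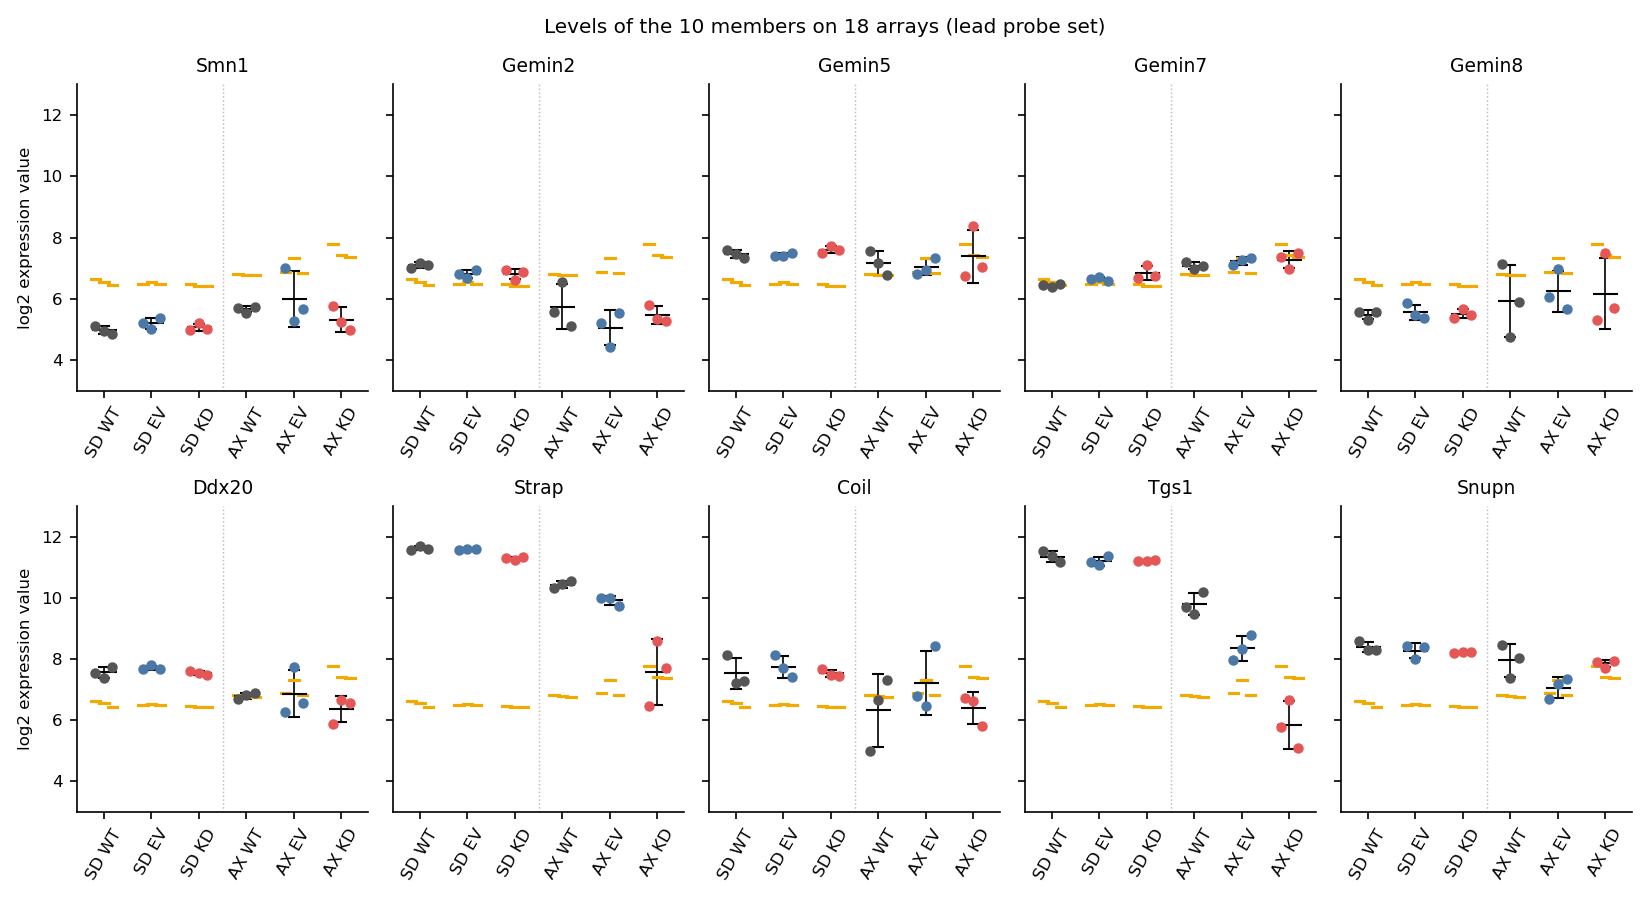
Each panel plots the log2 expression value of 1 gene's lead probe set on the 18 arrays (points), with the group mean and SD (black) and each array's background level (orange dashes), for somatodendritic (SD) and axonal (AX) arrays of wild-type (WT), empty vector (EV) and Smn knockdown (KD) cells. Strap and Tgs1 lie far above background in all SD groups and step down from AX WT to AX EV to AX KD, whereas Smn1 lies below background everywhere except on 1 AX EV array.

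A gene is called when limma's moderated test gave a Benjamini-Hochberg adjusted p (over all 18191 genes) under 0.05. In cell bodies, Strap was called lower in the knockdown than in both controls, whereas Gemin2 and Gemin7 were called against wild-type only. For Gemin2 the empty vector lay below wild-type by nearly the same amount as the knockdown (-0.29 and -0.30). Against the empty vector, 1 of the 10 genes was called in somatodendritic arrays, Strap, which fell, beside 28% of all genes. Against wild-type, 3 were called, beside 36% of all genes: Strap and Gemin2 fell and Gemin7 rose. Both comparisons use the same 3 knockdown arrays. The empty vector differed from wild-type in 0 of the 10 genes (1 at unadjusted p under 0.05, Gemin2), beside 2% of all genes. The median difference of the 10 genes was -0.06 against the empty vector and -0.01 against wild-type, beside -0.02 and -0.03 over all genes. Arrays of the groups did not overlap for 2 and 4 of the 10 genes, beside 43.3% and 48.7% of all genes. In axons, 0 of the 10 genes were called for knockdown against empty vector (3 at unadjusted p under 0.05: Tgs1, Strap and Snupn), beside 0.176% of all genes. Against wild-type, 1 was called, Tgs1, which fell, beside 0.099% of all genes. Empty vector and wild-type axons differed in 0 of the 10 genes (2 at unadjusted p under 0.05, Tgs1 and Snupn), as in 0% of all genes. The axonal medians of the 10 genes were -0.29 against the empty vector and -0.18 against wild-type, beside 0.06 and 0.03 over all genes. These sets are unlike, with 50% of the 10 genes above background in wild-type axons beside 35.4% of all genes. Genes of like level were not compared.

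**Figure D2:**
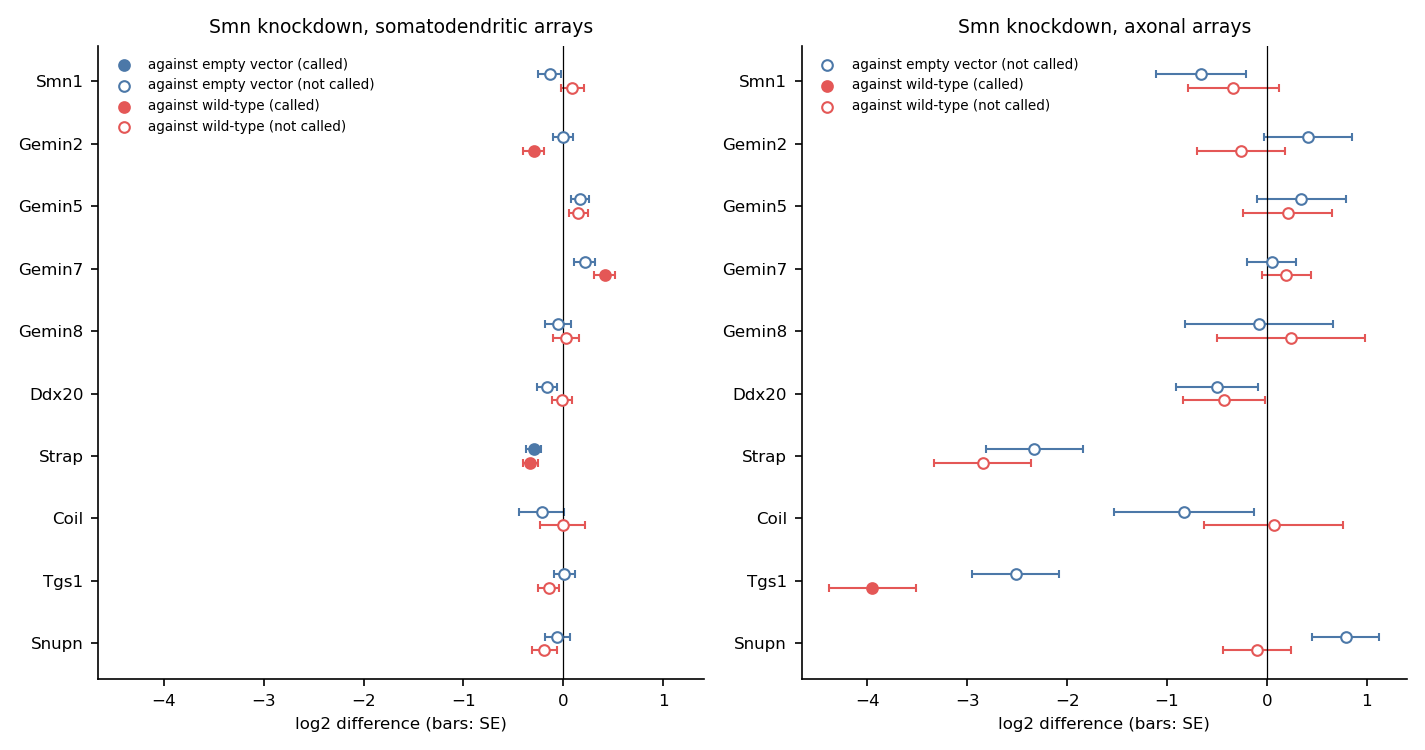
The log2 difference between Smn knockdown and each control (empty vector blue, wild-type red) is plotted for the lead probe set of each gene, with limma's SE as bars and filled points for an adjusted p under 0.05. On the left, somatodendritic differences stay between -0.33 and 0.42, and on the right Strap and Tgs1 in axons lie at -2.33 to -3.95, with SEs of 0.43 to 0.49.

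Between axons and cell bodies 4 to 6 of the 10 genes were called, of which Gemin7 was higher in axons and the others lower, by lead probe set. The arrays of each compartment were brought to a common distribution apart from those of the other, so levels set across compartments compare values that were normalized apart. In wild-type cells 4 of the 10 genes were called, beside 29.1% of all genes: Tgs1, Gemin2 and Strap were lower in axons and Gemin7 was higher. In empty vector cells 6 were called, beside 42% of all genes, namely the same 4 with Snupn and Ddx20, both lower. In knockdown cells 5 were called, beside 61.7% of all genes: Tgs1, Strap, Gemin2 and Ddx20 lower and Gemin7 higher. The median axonal minus somatodendritic difference of the 10 genes was -0.61, -0.69 and -0.75 in these 3 comparisons, whereas that of all genes was 0.17, 0.17 and 0.13. In cell bodies 70% to 80% of the 10 genes were above background, beside 51.7% to 53.4% of all genes. Genes of like level were not compared. Whether the knockdown effect itself differed between axons and cell bodies was tested as an interaction against the empty vector, and 2 of the 10 genes were called, Tgs1 and Strap, beside 6.77% of all genes.

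Probe sets ending in _s_at, _x_at or _a_at can share sequence with other genes or transcripts, and the lead probe sets of Strap, Smn1, Gemin7 and Ddx20 are of this kind. Without probe sets of these kinds, 7 of the 10 genes were measured, and the axonal minus somatodendritic counts became 2 in wild-type and 3 in knockdown cells. Normalizing all 18 arrays together left 2 called genes in wild-type and 3 in empty vector cells. The shares of all genes called under these settings are not given here.

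**Figure D3:**
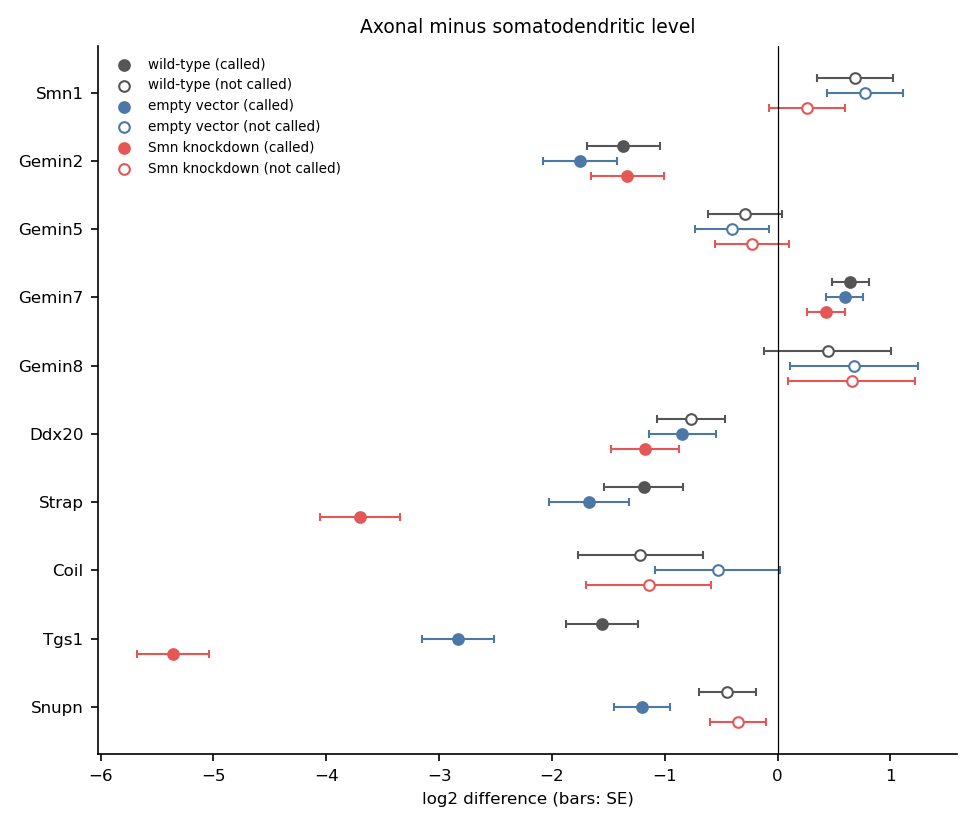
The axonal minus somatodendritic log2 difference of each gene's lead probe set is plotted for wild-type (grey), empty vector (blue) and Smn knockdown (red) cells, with limma's SE as bars and filled points for an adjusted p under 0.05. Gemin7 lies right of 0 and Gemin2 left of 0 in all 3, and for Tgs1 the difference widens from -1.56 in wild-type to -2.83 with the empty vector and -5.36 with the knockdown.

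Smn1, the gene that the shRNA was directed against, could not be followed with this array. Its only probe set, 1426596_a_at, read 5.12, 4.93 and 4.86 on the somatodendritic wild-type arrays, 5.20, 5.02 and 5.38 with the empty vector and 4.99, 5.20 and 5.00 with the knockdown. In axons it read 5.70, 5.54 and 5.72 in wild-type, 7.01, 5.26 and 5.66 with the empty vector and 5.76, 5.23 and 4.96 with the knockdown. These values overlap between knockdown and empty vector in both compartments, and 17 of the 18 lie below their array's background. The exception, axonal empty vector replicate 1, exceeded its background level of 6.88. The knockdown minus empty vector difference was -0.14 ± 0.11 (SE, adjusted p = 0.412) in cell bodies and -0.66 ± 0.45 (adjusted p = 0.486) in axons. With both groups below background no fold can be given, so the probe set does not check the knockdown labels in either direction, and the degree of knockdown is not known from these files. Values below background have no order, so the 6 group means are not ranked.

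Gemin2 binds SMN directly and holds the Sm proteins before they meet the RNA. On its probe set 1451044_at, wild-type cell bodies read 7.02, 7.18 and 7.11, the empty vector 6.81, 6.69 and 6.93 and the knockdown 6.94, 6.61 and 6.86. Both lentivirus groups lay below all wild-type arrays and overlapped each other. Against wild-type the knockdown was lower by -0.30 ± 0.10 on the log2 scale (1.23-fold, adjusted p = 0.0427), while the empty vector was lower by nearly the same amount, -0.29, without passing the adjustment (adjusted p = 0.177), and knockdown minus empty vector was 0.00 ± 0.10 (adjusted p = 0.987). The call against wild-type was lost without wild-type replicate 2 or 3 or knockdown replicate 2 or 3 (adjusted p 0.122, 0.083, 0.188 and 0.0638), in the fit over all probe sets (0.0534) with an intensity-dependent prior (0.0527) and in 1 fit to all 18 arrays (1). In axons Gemin2 read 5.56, 6.55 and 5.10 in wild-type, 5.22, 4.44 and 5.52 with the empty vector and 5.81, 5.33 and 5.28 with the knockdown. All 9 axonal values lie below background and below every somatodendritic value. The axonal minus somatodendritic difference was -1.37 ± 0.33 in wild-type (adjusted p = 0.0091), -1.75 ± 0.33 with the empty vector (0.00187) and -1.33 ± 0.33 with the knockdown (0.0029), and it was called under each alternative tried. Because axons are below background, the wild-type fold is at least 1.25, and no bound above 1 can be given in the other groups, where the axonal background lies above the somatodendritic level.

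Gemin5 recognises the snRNAs that the complex assembles. Its lead probe set 1436310_at read 7.58, 7.45 and 7.34 in wild-type cell bodies, 7.40, 7.41 and 7.51 with the empty vector and 7.49, 7.72 and 7.60 with the knockdown. In axons the values were 7.55, 7.18 and 6.78 in wild-type, 6.82, 6.95 and 7.33 with the empty vector and 6.74, 8.37 and 7.03 with the knockdown. The 6 groups form 1 band in which every pair of neighbours overlaps, and the knockdown arrays of axons were the most scattered (SD 0.87). None of the 9 comparisons or the interaction called it, with knockdown minus empty vector at 0.17 ± 0.09 in cell bodies (adjusted p = 0.222) and 0.34 ± 0.45 in axons (0.733). It stayed above background in wild-type axons, with the lowest array only just over the level, and on 1 of 3 arrays in each of the other axonal groups. A second probe set, 1455453_at, was likewise above background in wild-type axons (7.07, 6.96 and 6.85) and was called in no comparison. The third, 1436311_at, disagreed: it lay between 4.00 and 4.67 on 16 arrays but read 7.20, 4.57 and 7.99 in wild-type axons, where replicates 1 and 3 exceed background and replicate 2 does not. That put its axonal minus somatodendritic difference in wild-type at 2.54 ± 0.57 (adjusted p = 0.00652 in the fit over all probe sets), with neither group above background by the rule for all 3 arrays.

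Gemin7 pairs with Gemin6 in a unit of Sm-like fold, and Gemin8 joins that unit to SMN. Gemin7, on 1435764_a_at, was the one gene of the 10 whose lead probe set was called higher in axons. Its somatodendritic arrays read 6.43, 6.38 and 6.48 in wild-type, 6.64, 6.70 and 6.57 with the empty vector and 6.69, 7.10 and 6.75 with the knockdown, and its axonal arrays 7.20, 6.97 and 7.07, 7.09, 7.25 and 7.33, and 7.35, 6.97 and 7.50. The wild-type cell bodies are the lowest group, at background level, and all 3 axonal groups overlap. Against wild-type cell bodies the knockdown was higher by 0.42 ± 0.11 (at least 1.23-fold, adjusted p = 0.00879), and against the empty vector by 0.22 ± 0.11, which was not called (0.166). Leaving out any single array kept the first call, and 1 fit to all 18 arrays lost it (0.513). Axons exceeded cell bodies by 0.65 ± 0.17 in wild-type (at least 1.44-fold, adjusted p = 0.0134), 0.59 ± 0.17 with the empty vector (0.0143) and 0.43 ± 0.17 with the knockdown (0.0385). The wild-type call was lost without somatodendritic wild-type replicate 2 (0.0514), the empty vector call without somatodendritic empty vector replicate 3 (0.0516), and the knockdown call without somatodendritic or axonal knockdown replicate 1 or 3 (0.0849 to 0.137), with dim genes left out (0.0846) or with an intensity-dependent prior (0.0685). With array weights by compartment, an alternative chosen after seeing the data that lets axonal arrays vary more, none of these 3 calls was kept (0.103, 0.106 and 0.204). Empty vector and knockdown axons were above background on 2 and 1 of 3 arrays, so no fold is given there. The mean background level was also higher in axons than in cell bodies. It was 6.78 beside 6.54 in wild-type, 7.02 beside 6.51 with the empty vector and 7.53 beside 6.44 with the knockdown. In knockdown cells Gemin7 was above background on 3 of 3 somatodendritic arrays, and its axonal mean of 7.28 lay under the mean background.

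Gemin8 was below background in every group. Its lead probe set 1451400_at lay between 5.31 and 5.85 in cell bodies and between 4.76 and 7.49 in axons, where wild-type replicate 1 (7.12) and knockdown replicate 2 (7.49) alone exceeded background. The knockdown minus empty vector difference was -0.05 ± 0.13 (adjusted p = 0.818) in cell bodies and -0.08 ± 0.74 (0.97) in axons. Of its other probe sets, 1444239_at was higher in axons of knockdown cells (6.47, 6.71 and 6.61) than in their cell bodies (5.13, 4.89 and 5.00), by 1.59 ± 0.19 in the fit over all probe sets (adjusted p = 1.43e-05), and higher in axons with the empty vector by 0.80 ± 0.19 (0.00692). All of these values are below their arrays' background, which itself is higher in axons. The remaining probe set, 1424587_at, lay between 4.66 and 5.56 and was higher in wild-type axons by 0.53 ± 0.19 (0.0471), also below background.

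Ddx20 encodes the DEAD-box RNA helicase of the complex, also known as Gemin3. In cell bodies 1416751_a_at read 7.55, 7.39 and 7.75 in wild-type, 7.66, 7.79 and 7.67 with the empty vector and 7.61, 7.55 and 7.47 with the knockdown. The knockdown arrays lie just under all empty vector arrays, within the wild-type range, and the difference of -0.16 ± 0.10 was not called (adjusted p = 0.272). In axons it read 6.69, 6.82 and 6.88 in wild-type, 6.28, 7.73 and 6.58 with the empty vector and 5.88, 6.68 and 6.55 with the knockdown. Axons were thus lower on 8 of 9 arrays than any somatodendritic array, the exception being empty vector replicate 2. The axonal minus somatodendritic difference was -0.77 ± 0.30 in wild-type (adjusted p = 0.0645), -0.84 ± 0.30 with the empty vector (at least 1.47-fold, 0.0368) and -1.18 ± 0.30 with the knockdown (at least 1.01-fold, 0.0038). The knockdown value stayed called under each alternative tried. The empty vector call was lost without any of the 3 somatodendritic empty vector arrays (0.0771, 0.0942 and 0.0785) or without axonal empty vector replicate 1 or 3 (0.146 and 0.1), and rose in size to -1.28 without axonal replicate 2 (0.00179). When all 18 arrays were normalized together it was -0.55 and not called (0.286).

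Strap, also known as unrip, is a WD-repeat protein that travels with the SMN complex in the cytoplasm. It fell with the knockdown in cell bodies, by a small and even step, and had much lower values in knockdown axons. The lead probe set 1419912_s_at read 11.57, 11.70 and 11.59 in wild-type cell bodies, 11.57, 11.60 and 11.60 with the empty vector and 11.29, 11.24 and 11.34 with the knockdown. All 3 knockdown arrays lie below all 6 controls. The differences were -0.30 ± 0.08 against the empty vector (1.23-fold, adjusted p = 0.013) and -0.33 ± 0.08 against wild-type (1.26-fold, adjusted p = 0.00548). The first was lost without knockdown replicate 2 (-0.27, adjusted p = 0.057), and both were lost in 1 fit to all 18 arrays, where the wider axonal spread enters the error (adjusted p = 1). The second probe set, 1416566_at, fell by 0.50 ± 0.09 and 0.33 ± 0.09 on the log2 scale in the fit over all probe sets (adjusted p = 0.00201 and 0.0197). On the third, 1419913_at, the difference was -0.28 ± 0.10 against the empty vector, which was not called (0.0863), and -0.43 ± 0.10 against wild-type, which was (0.00791).

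In axons the lead probe set of Strap read 10.32, 10.44 and 10.53 in wild-type, 10.004, 10.004 and 9.74 with the empty vector and 6.45, 8.60 and 7.70 with the knockdown. The 3 groups do not overlap, and knockdown replicates 2 and 3 exceed background while replicate 1 does not. Knockdown minus empty vector was -2.33 ± 0.49 (at least 3.70-fold) and knockdown minus wild-type -2.85 ± 0.49 (at least 5.28-fold), and neither passed the adjustment (adjusted p = 0.0791 and 0.0593). Without axonal knockdown replicate 2, the first difference was -2.84 and was called (0.0338), as it was in 1 fit to all 18 arrays (0.000687). The probe set 1419913_at read 8.60, 8.89 and 8.50 in wild-type axons, 7.93, 8.59 and 8.23 with the empty vector and 5.41, 6.44 and 5.86 with the knockdown, all 3 of the last below background. In the fit over all probe sets its differences were called, at -2.34 ± 0.32 against the empty vector (at least 1.65-fold, adjusted p = 0.0463) and -2.76 ± 0.32 against wild-type (at least 2.20-fold, 0.0368). By contrast 1416566_at was scattered, with 10.80, 9.02 and 9.69 in wild-type axons, 8.12, 7.51 and 10.16 with the empty vector and 7.50, 8.41 and 6.19 with the knockdown, and its difference of -1.23 ± 0.81 against the empty vector was not called (0.491).

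Between compartments the Strap probe sets also disagreed. On the lead probe set axons were lower by -1.19 ± 0.35 in wild-type (2.28-fold, adjusted p = 0.0242), -1.67 ± 0.35 with the empty vector (3.19-fold, 0.00374) and -3.70 ± 0.35 with the knockdown (at least 9.58-fold, 2.72e-06). On 1416566_at the differences were -0.90 ± 0.62 (0.252), -2.32 ± 0.62 (0.0104) and -3.04 ± 0.62 (0.000787). On 1419913_at they were 0.16 ± 0.23 in wild-type and -0.10 ± 0.23 with the empty vector, neither called (0.594 and 0.734), and -2.17 ± 0.23 with the knockdown (5.29e-06). For the wild-type difference of the lead probe set, the call was lost without any one of the 3 somatodendritic wild-type arrays or axonal wild-type replicate 1 (adjusted p 0.0592 to 0.0739). When all 18 arrays were normalized together the differences shrank to -0.51 in wild-type (0.467) and -0.94 with the empty vector (0.133). The interaction, which tests the knockdown effect in axons against that in cell bodies, was -2.03 ± 0.50 on the lead probe set (adjusted p = 0.0285), -2.07 ± 0.33 on 1419913_at (0.00519) and -0.72 ± 0.87 on 1416566_at (0.698). The lead value lost its call without any one somatodendritic empty vector or knockdown array (adjusted p 0.065 to 0.0689), with sizes between -2.01 and -2.06.

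Tgs1, the enzyme that hypermethylates the snRNA cap, had the lowest adjusted p of the 10 genes in all 3 axonal against somatodendritic comparisons, in the interaction and in both axonal knockdown comparisons. Its lead probe set 1421904_at read 11.52, 11.35 and 11.18 in wild-type cell bodies, 11.16, 11.06 and 11.35 with the empty vector and 11.19, 11.19 and 11.23 with the knockdown. These 9 values overlap, and knockdown minus empty vector was 0.01 ± 0.10 (adjusted p = 0.96). In axons the same probe set read 9.71, 9.49 and 10.18 in wild-type, 7.96, 8.33 and 8.78 with the empty vector and 5.78, 6.65 and 5.10 with the knockdown. The 3 axonal groups step down without overlap, and all knockdown arrays are below their background. Knockdown minus wild-type was -3.95 ± 0.43 (at least 4.81-fold, adjusted p = 0.0371), and knockdown minus empty vector was -2.52 ± 0.43 (at least 1.78-fold), which did not pass (0.0636). The empty vector alone lay -1.43 ± 0.43 below wild-type, at an unadjusted p of 0.0101 and an adjusted p of 1. The call against wild-type was lost without wild-type replicate 1, 2 or 3 (0.0709, 0.12 and 0.182) or knockdown replicate 1 or 3 (0.0977 and 0.0506), and with axonal knockdown replicate 1 and empty vector replicate 2 both left out, a setting chosen after seeing the data (-3.92, 0.0676). Without knockdown replicate 2 the difference from the empty vector was -2.92 and was called (0.0309), as it was in 1 fit to all 18 arrays (0.000246).

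Axonal Tgs1 lay below its somatodendritic level by -1.56 ± 0.32 in wild-type (2.94-fold, adjusted p = 0.00425), -2.83 ± 0.32 with the empty vector (7.12-fold, 9.41e-05) and -5.36 ± 0.32 with the knockdown (at least 12.8-fold, 1.1e-07). The last 2 were called under each alternative tried. The wild-type difference was -0.77 when all 18 arrays were normalized together and was then not called (0.188). The interaction was -2.53 ± 0.45 (adjusted p = 0.00761), and it kept its call under all 19 alternatives tried, with adjusted p from 0.000489 to 0.0264. Its size rests on knockdown axon values below background, where the axonal difference from the empty vector, itself not called, is known only as at least 1.78-fold. Beside these differences stand the values that apply to the knockdown axons as a whole: background levels of 7.37 to 7.78 on their arrays against 6.77 to 6.81 in wild-type axons, and 17.1% against 35.4% of genes above background. Their part in the results was not tested.

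The other 5 probe sets of Tgs1 were at or below background on nearly all arrays, and 3 of them, unlike the lead probe set, were called higher with the knockdown in cell bodies. On 1450401_at the somatodendritic arrays read 5.59, 5.75 and 5.12 in wild-type, 5.28, 5.64 and 5.78 with the empty vector and 6.92, 6.70 and 7.02 with the knockdown. Only the knockdown arrays are above background, and they lie above all 6 controls. In the fit over all probe sets the rise was 1.31 ± 0.17 against the empty vector (at least 1.29-fold, adjusted p = 0.00013) and 1.40 ± 0.17 against wild-type (at least 1.27-fold, 5.73e-05). In the same direction, 1421905_at rose by 0.52 ± 0.11 and 0.66 ± 0.11 (adjusted p = 0.00541 and 0.000721), with all groups below background. In axons 1450401_at was scattered, from 3.56 to 7.26 with the knockdown, and no axonal difference was called on it. The third, 1450400_at, rose against wild-type by 0.36 ± 0.12 (0.0339) and was 0.27 ± 0.12 above the empty vector without a call (0.136), again below background. No somatodendritic knockdown difference was called on 1439710_at or 1446164_at. Between compartments, knockdown axons were lower on 1421905_at (-0.91 ± 0.32, 0.0253) and higher on 1446164_at (0.77 ± 0.23, 0.00932), both with the 2 compartments below background.

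**Figure D4:**
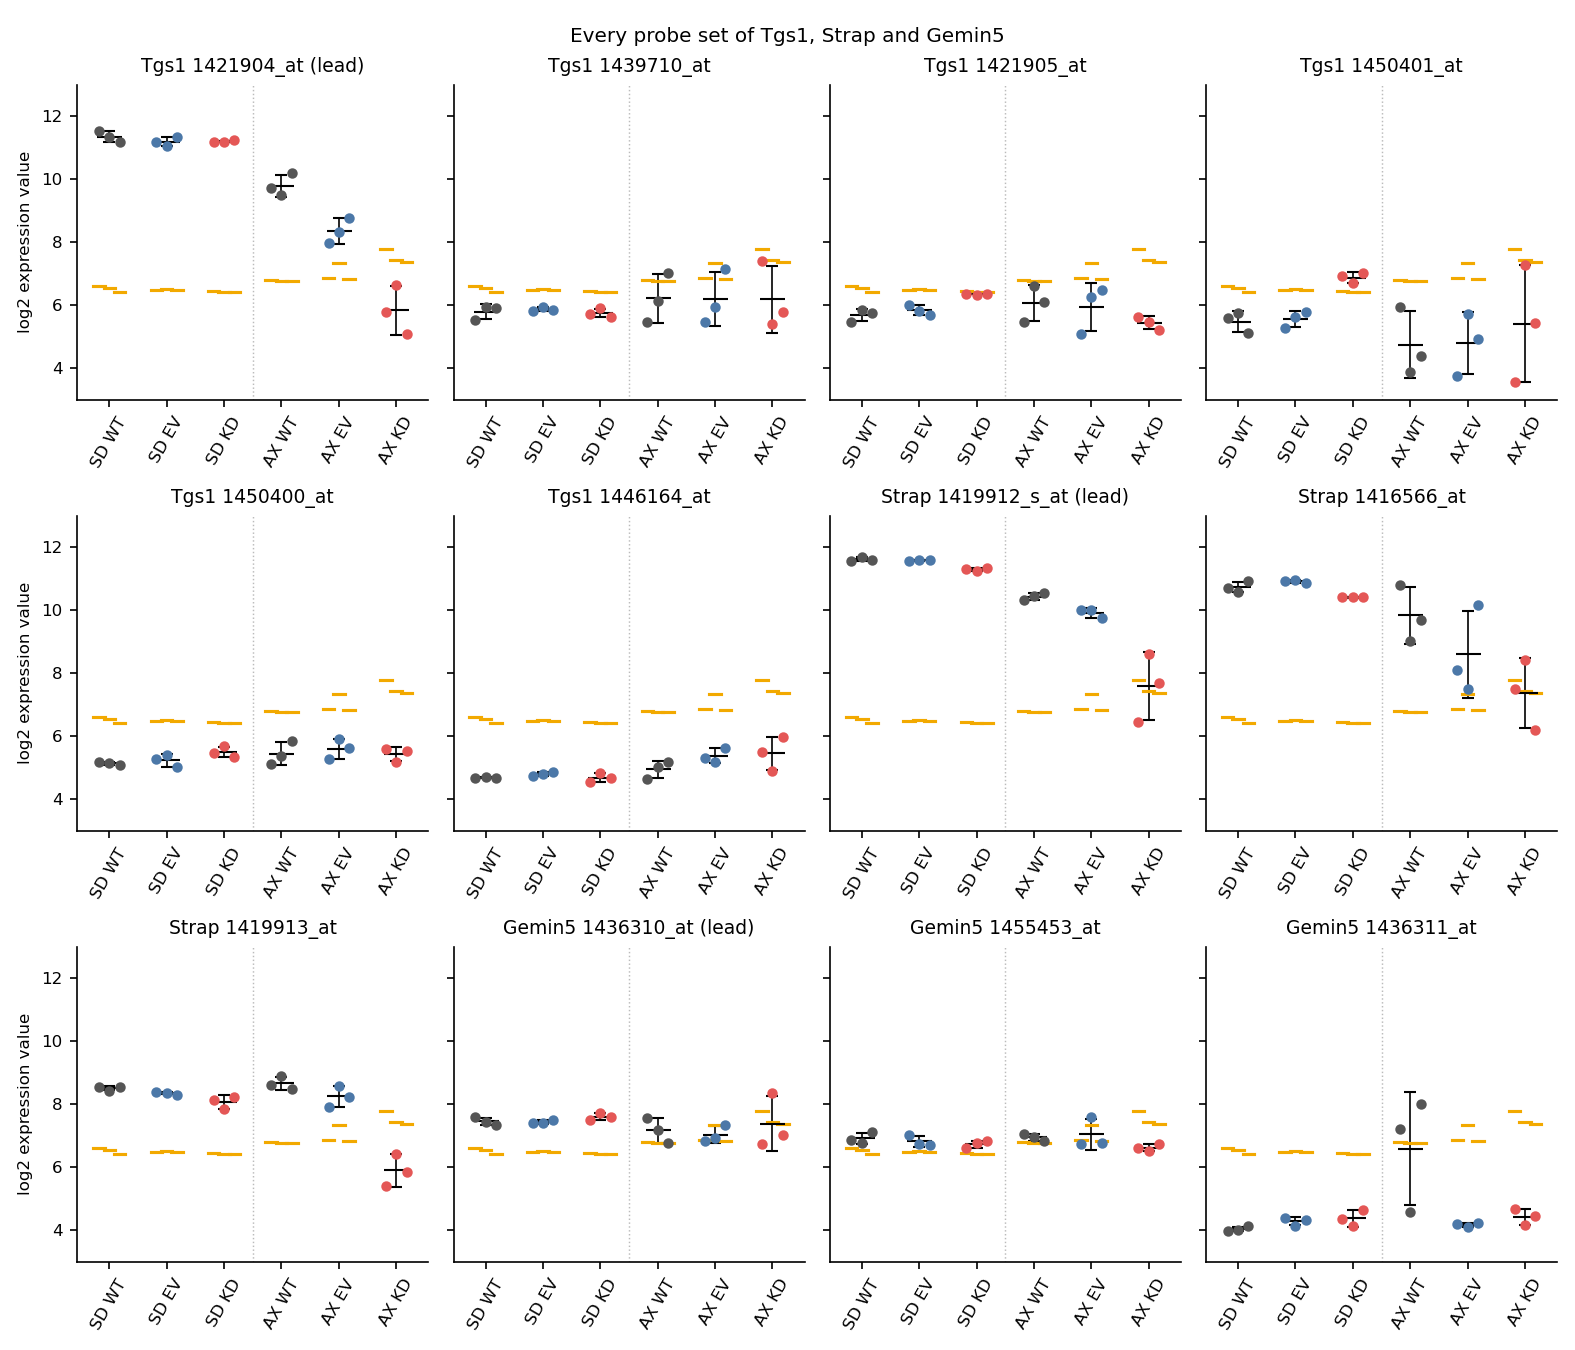
Each panel plots 1 probe set of Tgs1, Strap or Gemin5 on the 18 arrays as log2 expression values (points), with group means and SDs (black) and array background levels (orange dashes) and the group labels SD and AX (compartments) and WT, EV and KD (treatments). The lead Tgs1 probe set is flat across SD groups while 1450401_at is higher in SD KD, and 1 of the 3 Gemin5 probe sets is high on 2 AX WT arrays only.

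Snupn encodes snurportin, the adaptor that binds the trimethylated cap and brings the particle to importin beta. Its lead probe set 1452808_at read 8.58, 8.31 and 8.30 in wild-type cell bodies, 8.42, 7.98 and 8.40 with the empty vector and 8.18, 8.22 and 8.21 with the knockdown. These groups overlap except that the knockdown lies just under wild-type, and neither knockdown difference was called (-0.06 ± 0.12 against the empty vector, adjusted p = 0.774, and -0.19 ± 0.12 against wild-type, 0.26). In axons it read 8.47, 7.37 and 8.02 in wild-type, 6.68, 7.17 and 7.34 with the empty vector and 7.91, 7.71 and 7.95 with the knockdown. It was the one gene of the 10 above background on all 3 knockdown axon arrays. The empty vector group is the low one here: all knockdown arrays exceeded all of its arrays, but the difference of 0.79 ± 0.34 was not called (adjusted p = 0.269), nor was that from wild-type (-0.10 ± 0.34, 0.905), and the second probe set 1441942_x_at gave 0.64 ± 0.34 (0.385) and 0.16 ± 0.34 (0.846). Axons were lower than cell bodies by -1.20 ± 0.25 with the empty vector (at least 2.12-fold, adjusted p = 0.00339), by -0.44 ± 0.25 in wild-type (0.175) and by -0.35 ± 0.25 with the knockdown (0.228), of which the first was called. With all 18 arrays normalized together the empty vector difference was -0.78 and not called (0.0736), so the fold of 2.12 holds for the deposited values only. On 1441942_x_at the empty vector difference was -0.60 ± 0.25 (0.0591). The third probe set, 1445434_at, lay between 4.25 and 5.38 and below background throughout.

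Coil, the gene of coilin, had the highest SD between arrays of the 10 genes in the wild-type and empty vector groups of both compartments. On 1416692_at, cell bodies read 8.12, 7.21 and 7.28 in wild-type, 8.14, 7.70 and 7.42 with the empty vector and 7.66, 7.47 and 7.46 with the knockdown. Its axonal values were 5.00, 6.65 and 7.31, 6.80, 6.45 and 8.41, and 6.74, 6.64 and 5.80 in the same order. Cell bodies are above background on all arrays, and axons on wild-type replicate 3 and empty vector replicate 3. No comparison called it. Knockdown minus empty vector was -0.22 ± 0.22 (adjusted p = 0.529) in cell bodies and -0.83 ± 0.70 (0.573) in axons. Axons minus cell bodies was -1.22 ± 0.56 in wild-type (0.103), where the arrays of the compartments overlap, and -1.14 ± 0.56 with the knockdown (0.0864). Over the 10 genes the median SD between arrays of a group was 0.14, 0.13 and 0.12 in wild-type, empty vector and knockdown cell bodies and 0.37, 0.48 and 0.47 in axons, beside 0.12, 0.11 and 0.09 and 0.36, 0.49 and 0.49 over all genes.

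Around these genes, 53 others of snRNP biogenesis were listed by role, and 47 of them could be measured. The remaining genes of the list were not analysed here. In somatodendritic arrays 9 of the 47 were called higher and 10 lower in the knockdown than in the empty vector group. Against wild-type 13 were called higher and 11 lower. Of all genes 28% and 36% were called in these comparisons (2267 higher and 2821 lower, and 2833 higher and 3717 lower). The medians of the 47 were -0.02 and -0.01, beside -0.02 and -0.03 over all genes. The lowest p-values against the empty vector belonged to Snrpd3, Snrpa1, Snrpb2, Kpnb1, Ints8 and Zpr1. Snrpd3, a protein of the Sm ring, rose from 9.01 ± 0.10 to 10.08 ± 0.11 (mean ± SD, n = 3), a difference of 1.07 ± 0.16 (SE, adjusted p = 0.000277), and stood at 8.36 ± 0.38 in wild-type. Snrpa1 and Snrpb2, the partner proteins that bind the U2 snRNA, rose by 0.59 ± 0.09 (adjusted p = 0.000361) and 0.81 ± 0.13 (0.00052). Kpnb1, importin beta, rose by 0.63 ± 0.10 (0.000604), and Zpr1, a zinc finger protein that binds SMN, by 0.46 ± 0.09 (0.00179), with its empty vector group not above background. Ints8, a subunit of the Integrator complex that cleaves the 3′ ends of snRNAs, fell from 8.04 ± 0.16 to 7.49 ± 0.05, by 0.55 ± 0.10 on the log2 scale (0.00146).

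The counts by role are small, have no test of their own and stand beside the same 28% and 36% of all genes called. The Sm core had 1 higher and 1 lower of 6 against the empty vector, Sm methylation 2 higher and 0 lower of 5, and proteins of single snRNPs 3 higher and 0 lower of 4. The Integrator subunits had 1 higher and 6 lower of 14 against either control (medians -0.23 and -0.22, beside -0.02 and -0.03 over all genes). Among genes of snRNA export and import 1 of 5 was higher and 2 lower, among Cajal body and maturation genes 0 of 8 higher and 1 lower, and of the 2 U7 genes neither was called. Against wild-type, Prmt5, which methylates Sm proteins, was among the 6 with the lowest p (0.66 ± 0.10, adjusted p = 0.000287), but it was also the 1 gene of the 47 that differed between empty vector and wild-type (0.54 ± 0.10, 0.0168). Microglial, interferon-induced, dividing-cell, astrocyte and oligodendrocyte-lineage markers moved with the same knockdown arrays, by the values given above, and their part in these counts was not tested.

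**Figure D5:**
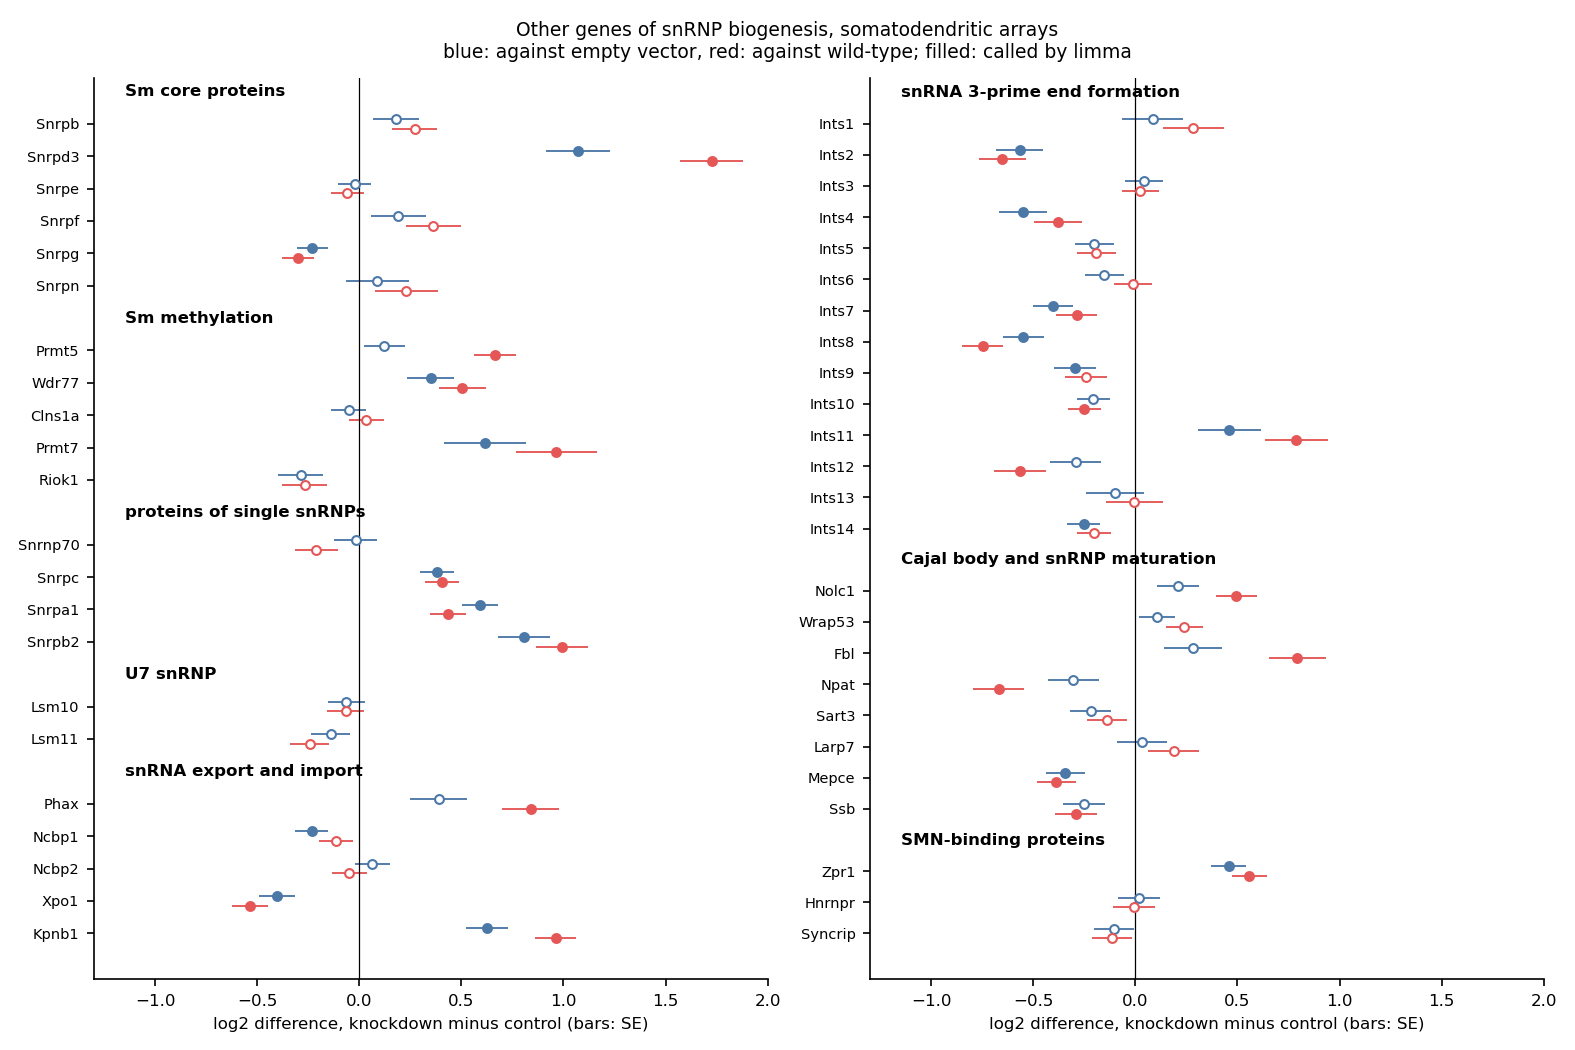
For the 47 other genes of snRNP biogenesis, grouped by role, the log2 difference between knockdown and empty vector (blue) and between knockdown and wild-type (red) in somatodendritic arrays is plotted with limma's SE, and filled points have an adjusted p under 0.05. Snrpd3 lies farthest right (1.07 and 1.73), and the filled Integrator points lie left of 0 except for Ints11.

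In axons, 0 of the 47 were called for the knockdown against either control, or between the controls, beside 0.176%, 0.099% and 0% of all genes. The knockdown medians were -0.45 against the empty vector and -0.58 against wild-type, beside 0.06 and 0.03 over all genes, with 33 of 47 differences below 0 in both. These medians are of unlike sets, as 30 of the 47 were above background in wild-type axons beside 35.4% of all genes. A fall cannot be read for genes at background, and genes of like level were not compared. Above background were 39, 42 and 44 of the 47 in wild-type, empty vector and knockdown cell bodies and 30, 24 and 12 in the corresponding axons, beside 51.7%, 52.2% and 53.4%, and 35.4%, 26.2% and 17.1%, of all genes. Between compartments 2 were higher and 9 lower in axons of wild-type cells, 5 and 14 with the empty vector and 10 and 23 with the knockdown, beside 29.1%, 42% and 61.7% of all genes called in either direction. In wild-type the lowest p-values belonged to Ints2 (-2.21 ± 0.32, adjusted p = 0.000584), Snrpg, an Sm protein (-0.90 ± 0.19, 0.0049), Ints7 (-2.78 ± 0.61, 0.0063), Ints8 (-2.00 ± 0.45, 0.0068), Ncbp2 of the cap-binding complex (-1.68 ± 0.39, 0.00779) and Snrpn (1.09 ± 0.28, 0.0128), the last below background in both compartments. The interaction called 2 of the 47, beside 6.77% of all genes, both higher: Snrnp70, a protein of the U1 snRNP, at 1.55 ± 0.37 (adjusted p = 0.0262), and Sart3, which recycles spliceosomal snRNPs, at 1.26 ± 0.24 (0.00966). Snrnp70 stood at 6.73 ± 0.17 and 6.71 ± 0.12 in empty vector and knockdown cell bodies and at 7.60 ± 0.59 and 9.12 ± 0.39 in axons, and Sart3 at 8.10 ± 0.03 and 7.89 ± 0.08, and at 8.45 ± 0.12 and 9.48 ± 0.28. The direction is opposite to that of Tgs1 and Strap, whose interactions were below 0. Within axons alone neither Snrnp70 nor Sart3 was called against the empty vector (adjusted p = 0.0947 for Snrnp70 and 0.101 for Sart3). Alternative settings were not tried for the 47 genes.

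Strap, the gene of the 10 with the highest mean value, was also set against 9165 genes whose mean exceeded the mean background. The most alike over the 18 arrays by Pearson's r were Dzip3 (0.983), Abhd17c (0.98), Smc6 (0.972), Dnaja2 (0.971) and Wac (0.971). All 18 points share the step between compartments. Within the 9 axonal arrays r was between 0.943 and 0.978, and within the 9 somatodendritic arrays between 0.641 (Dnaja2) and 0.96, with points that fall into the groups already described. These values are a description, and genes chosen for a high r must have one.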

How the data were processed

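The authors deposited log2 expression values per probe set for 18 arrays; the software and the summarisation that made them are not given in the sources used here. Per the labels, RNA was amplified linearly and hybridised to Affymetrix Mouse430_2 arrays. Once sorted, the values of any 2 somatodendritic arrays were within 0.00484 of each other and those of any 2 axonal arrays within 0.0125, so each compartment had been brought to its own distribution (medians 5.77 and 5.95). Of 45101 probe sets, 64 control probe sets and 11 with missing values were left out, 34934 named 1 gene in the platform annotation, and 932 named several and were not used for genes. The highest correlation across genes between 2 arrays was 0.997.

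The 10 genes, the pathway list, the marker lists and the tests were chosen with earlier results of these data known. The rule named all 10 genes with every probe set, of the pathway list the called genes with the 6 lowest p-values in a comparison, and the 5 genes most like Strap. Other genes named within the pathway list, such as Prmt5 and Ints11 beside a count or in a caption, were chosen after their values were seen. Tests used the moderated statistics of limma 3.58.1 under R 4.3.3, with 1 mean per group, within a compartment on its 9 arrays and across compartments on all 18, with Benjamini-Hochberg adjustment over 18191 genes and a threshold of 0.05. The fit over all probe sets adjusts over 45026. The fit within a compartment was tried on simulated data, and the fits across compartments and the interaction were not. Where 1 group was not above background, a fold is a lower bound, computed against the mean over that group's arrays of the higher of each array's value and its background level. The bound concerns background only and makes no allowance for spread between arrays, for other probe sets or for normalization. Where neither group was above background, no fold is given. Signal over background takes the place of depth.

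Alternatives were a fit over all probe sets, probe sets ending in _s_at, _x_at or _a_at left out, dim genes left out, an intensity-dependent prior, 1 fit to 18 arrays, joint quantile normalization, the array number as a replicate block, other background percentiles, and each array left out in turn. Leaving out axonal knockdown replicate 1 and axonal empty vector replicate 2 together, and array weights by compartment, were chosen after seeing the data. Titles number the control arrays (Gr) and the knockdown arrays (Nr) by different schemes, so what the schemes mark and the knockdown cannot be told apart. Deviations of control arrays with the same number correlated between -0.193 and 0.227, with 1 of 18 correlations over 0.1, so the numbers were not taken to pair the arrays.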

Additional observations from a re-analysis of the deposited data

Results flagged for a closer look

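The effect of the knockdown against the empty vector differed between axons and cell bodies, by a test of the difference itself, for 2 of the 10 genes and 2 of the 47 others, beside 6.77% of all genes. It was lower in axons for Tgs1 (-2.53, adjusted p = 0.00761) and Strap (-2.03, 0.0285), and higher in axons for Snrnp70 (1.55, 0.0262) and Sart3 (1.26, 0.00966). Alternatives were run for the 10 genes only, so the calls of Snrnp70 and Sart3 were tried under none. In knockdown axons the lead probe set of Tgs1 was above background on 0 of 3 arrays and that of Strap on 2 of 3. The sizes of the Tgs1 and Strap differences are thus not exact. With values below background raised to it, these lead probe sets lay below empty vector axons by 1.78-fold for Tgs1 and 3.70-fold for Strap. Neither was called within axons. On the other Strap probe sets this fold was 1.67 (1416566_at, not called) and 1.65 (1419913_at, called in the fit over all probe sets).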

How the results depend on the processing

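Over 24 member results and 313 alternatives, 256 kept their direction and side of the threshold, 53 lost a call, 4 gained one and 0 reversed, and 8 results kept their call or level under every alternative. In cell bodies, 1 fit to all 18 arrays left 0 called genes against the empty vector and 0 against wild-type, and leaving out 1 array gave 0 to 1 and 2 to 3. In axons, that fit called 3 genes against the empty vector and 2 against wild-type, leaving out 1 array gave 0 to 2 for both, and leaving out knockdown replicate 1 and empty vector replicate 2 together, chosen after seeing the data, gave 0 against wild-type. Without probe sets ending in _s_at, _x_at or _a_at, axons against cell bodies called 2 genes in wild-type and 3 in knockdown cells, and the interaction called 1, with Strap at -0.72 on its next probe set (adjusted p = 0.696). Joint normalization of all 18 arrays called 2 in wild-type and 3 in empty vector cells, and shifted the median of genes by -0.04 in cell bodies and 0.06 in axons. Leaving out 1 array gave 2 to 5, 4 to 7 and 4 to 6 called genes for axons against cell bodies in wild-type, empty vector and knockdown cells, and 1 to 2 for the interaction. Counts above background under the other rules ranged in wild-type axons from 2, at the 99th percentile, to 6. They were 4 in empty vector axons at the 90th, and 2, 0 and 2 in knockdown axons at the 90th, at the 99th and on at least 2 of 3 arrays. The shares of all genes under these other rules were not computed. The array numbers share only a number, and with them as a replicate block, fitted on control arrays, 0 genes were called for empty vector against wild-type in either compartment, 4 for axons against cell bodies in wild-type and 5 with the empty vector, where Ddx20 lost its call (-0.84, 0.0581). Fits that leave a smaller group assume that its arrays vary like the others. The share of all genes called under each alternative is not given here. The changes in these counts thus cannot be set against the change over all genes.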
